A study of Mus musculus with 4 samples.

Results

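At day 2 after ischemia-reperfusion injury (IRI), cells of the thick ascending limb of the loop of Henle differed widely in Clu, the transcript of clusterin, and cells with much Clu were compared with cells with little Clu in the same library. The cells were chosen by their own counts of unique molecular identifiers (UMIs). A cell of the day 2 library entered with 500 or more UMIs and 300 or more genes if no more than 50% of its UMIs came from mitochondrially encoded genes. Per 10000 UMIs it had at least 5 of Slc12a1, the apical sodium-potassium-chloride cotransporter that marks the thick limb, under 20 of Tyrobp, Fcer1g and Ctss summed, which mark immune cells, under 5 of Slc12a3 and under 5 of Aqp2, which mark the distal convoluted tubule and the collecting duct. This gate held 518 of the 8988 filtered day 2 cells (9023 barcodes there, 27230 in the series). Clu-high cells, with at least 60 Clu UMIs per 10000, numbered 154 (29.7% of the gate, exact 95% binomial interval 25.8 to 33.9%). Clu-low cells, under 25, numbered 246 (47.5%, 43.1 to 51.9%), and 118 cells (22.8%, 19.2 to 26.6%) lay between.

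All 4 libraries came from BAC-CluGFP mice, which carry a green fluorescent reporter tied to Clu on a bacterial artificial chromosome, and only sorted reporter-positive kidney cells were captured. The groups were kidneys 2, 7 and 30 days after 35 min of ischemia with reperfusion and kidneys of untreated mice, with 1 library each. The labels name no strain, age or number of animals. Both Clu groups therefore come from 1 capture of sorted cells, cells are not replicates, and differences are described without a test. Levels are UMIs of a gene summed over the cells of a group, scaled to 1000000 UMIs of that group (CPM), and the exact 95% intervals of levels, ratios and shares cover counting error only.

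The thick limb reabsorbs salt without water, drives the uptake of calcium and magnesium between its cells, and secretes uromodulin and epidermal growth factor. Its last stretch before the distal convoluted tubule holds the macula densa, a plaque of salt-sensing cells that make nitric oxide through Nos1 and express the protease Pappa2. Clusterin is a secreted chaperone that injured tubules are known to make.

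Clu was graded and had no gap at the limits. It had a median of 95.2 per 10000 UMIs in Clu-high cells and of 10.3 in Clu-low cells, with a highest value of 321. The values nearest the upper limit were 60.1 inside the Clu-high group and 59.3 outside it. Those nearest the lower limit were 24.97 inside the Clu-low group and 25.1 outside it. Between 50 and 80 per 10000 there were 25 cells below the limit of 60 and 43 at or above it, so the groups are ranges cut from a graded measure. As Clu and Slc12a1 chose the cells, their levels are descriptions. Slc12a1 had a median of 11.6 per 10000 in Clu-high cells, 16.5 between the limits and 19.2 in Clu-low cells.

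**Figure D1:**
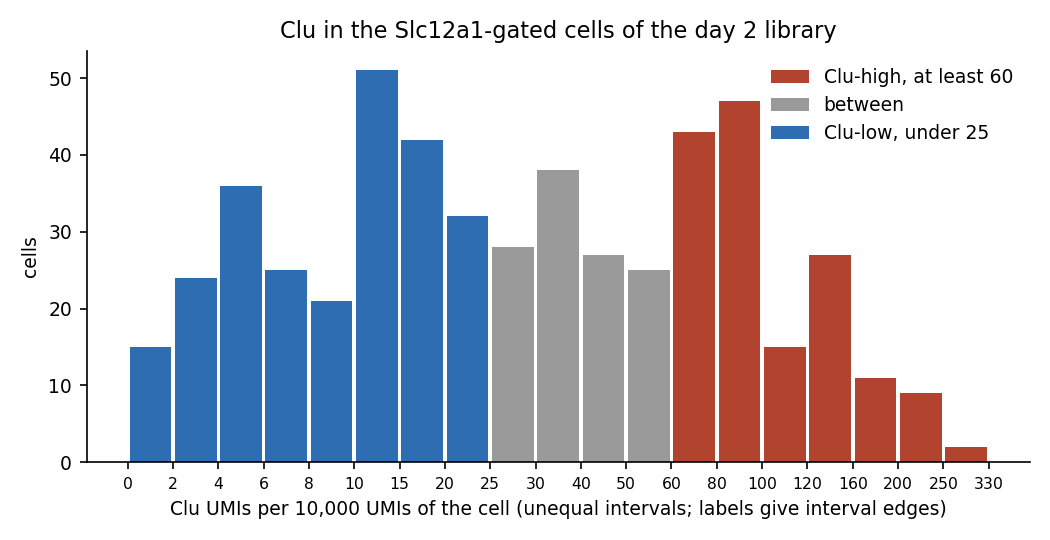
Number of day 2 gated cells (vertical axis) in intervals of Clu UMIs per 10000 UMIs (horizontal axis, unequal intervals); blue bars are the 246 Clu-low cells, grey the 118 between and red the 154 Clu-high cells. The distribution runs through both limits without a gap.

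Median depth was similar in the groups, but the deepest cell had 105377 UMIs in Clu-high and 36626 UMIs in Clu-low cells. Deep cells weigh more in the summed levels. The median was 14913.5 UMIs per cell in Clu-high cells and 13598 in Clu-low cells, and the sums were 2539007 UMIs in Clu-high and 3515558 UMIs in Clu-low cells. The median share of mitochondrially encoded UMIs was 8.11% in Clu-high and 6.94% in Clu-low cells. The thick limb identity held in both groups. Umod, the transcript of uromodulin, had a UMI in 154 of 154 Clu-high and 235 of 246 Clu-low cells, and 8 thick limb markers summed to 9787 CPM in Clu-high and 9614 CPM in Clu-low cells, against 94.8 CPM in the 3946 myeloid cells of the library (Tyrobp, Fcer1g and Ctss at 60 or more per 10000). RNA of other cells was present in both groups. The 5 neutrophil markers summed to 3136 CPM in Clu-high and 2957 CPM in Clu-low cells (45508 in the myeloid cells), the 8 macrophage markers to 549 CPM in Clu-high and 462 CPM in Clu-low cells (17189 in the myeloid cells), and no marker of either list was at 0. Smaller sums lay apart: the 5 urothelium markers came to 10.2 CPM in Clu-high and 52.1 CPM in Clu-low cells, the 6 intercalated cell markers to 44.9 CPM in Clu-high and 87.0 CPM in Clu-low cells, and the 5 endothelium markers to 35.8 CPM in Clu-high and 63.4 CPM in Clu-low cells. Of the intercalated markers 4 were at 0 in Clu-high cells, and the part of these cells in the lower genes was not tested. Scrublet marked 10 of the Clu-high cells (6.49%) and 11 of the Clu-low cells (4.47%) as doublets, and they were kept. Of the gated barcodes, 3 also occurred in the untreated and 1 in the day 30 library.

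Few genes separated the groups. A gene was measured with at least 50 CPM in either group, and is called higher or lower here where the ratio of Clu-high over Clu-low cells reached 2-fold. Of 2927 measured genes outside the gate, 13 (0.444%) were higher and 23 (0.786%) were lower in Clu-high cells. The median log2 ratio of all measured genes was -0.04, and 95.9% of them lay within 1.5-fold. Among the higher genes were an epithelial antibody transporter, a phosphate carrier and a lysosomal protease. Among the lower genes were the kallikrein Klk1, the transcription factor Klf4, a Wnt antagonist and the macula densa genes Nos1 and Pappa2.

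Pigr encodes the polymeric immunoglobulin receptor, which carries antibodies across epithelia. It stood at 340 CPM (317 to 363) in Clu-high cells and 122 CPM (111 to 134) in Clu-low cells, a ratio of 2.78 (2.47 to 3.13). With each cell thinned to 3000 UMIs, 42.2% of Clu-high and 17.1% of Clu-low cells held a Pigr UMI, beside 1.22% of myeloid cells, which should lack it. All gated cells were deeper than that, so none were left out. Before thinning the shares were 74.0% in Clu-high and 44.7% in Clu-low cells. Pigr was thus both more often detected and more abundant in Clu-high cells, and no cell held more than 4.99% of the group's Pigr UMIs (15.9% in Clu-low cells).

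Slc34a2, the sodium-phosphate cotransporter known from lung and intestine, stood at 150 CPM (135 to 166) in Clu-high and 54.3 CPM (46.9 to 62.6) in Clu-low cells, a ratio of 2.75 (2.31 to 3.30). It was found after thinning in 27.3% of Clu-high, 11.4% of Clu-low and 0.456% of myeloid cells. Ctsl, the lysosomal protease cathepsin L, had 1401 CPM (1355 to 1448) in Clu-high and 686 CPM (659 to 714) in Clu-low cells, a ratio of 2.04 (1.94 to 2.15), with a median per cell of 10.6 per 10000 UMIs in Clu-high and 4.16 in Clu-low cells. Ctsl was the most abundant of the 13 higher genes.

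Nupr1, a small stress-induced nuclear protein, had 406 CPM in Clu-high and 149 CPM in Clu-low cells (ratio 2.73, 2.46 to 3.04), with 19.2% of the Clu-high UMIs in 1 cell. Prr15 had 68.9 CPM in Clu-high and 20.2 CPM in Clu-low cells (3.41, 2.58 to 4.56). Gclc, the catalytic subunit of the enzyme that starts glutathione synthesis, had 274 CPM in Clu-high and 129 CPM in Clu-low cells (2.12, 1.88 to 2.39). Both Gclc and Prr15 were detected in more Clu-high than Clu-low cells after thinning, 43.5% of Clu-high against 22.0% of Clu-low cells for Gclc and 11.04% of Clu-high against 3.25% of Clu-low cells for Prr15. Fabp3, a fatty-acid-binding protein, had 176 CPM in Clu-high and 77.9 CPM in Clu-low cells (2.25, 1.93 to 2.63), and Tacc2, a centrosome-associated protein, had 271 CPM in Clu-high and 124 CPM in Clu-low cells (2.18, 1.93 to 2.46). Gmpr, which encodes guanosine monophosphate reductase, had 72.5 CPM in Clu-high and 36.1 CPM in Clu-low cells (2.01, 1.59 to 2.54).

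Another 4 of the 13 higher genes had many of their UMIs in 1 cell or stood beside RNA of other cells. The chemokine Ccl5 had 54.0 CPM in Clu-high and 11.4 CPM in Clu-low cells, but single cells held 48.9% of the Clu-high and 67.5% of the Clu-low UMIs. For the chemokine Ccl20, at 58.3 CPM in Clu-high and 28.7 CPM in Clu-low cells, single cells held 40.5% of the Clu-high and 91.1% of the Clu-low UMIs. Gpx3, a secreted glutathione peroxidase made mostly by the proximal tubule, had 113 CPM in Clu-high and 31.0 CPM in Clu-low cells, with 38.5% of the Clu-high and 44.0% of the Clu-low UMIs in 1 cell, and 2055 CPM in the untreated thick limb gate. Cd14, the lipopolysaccharide co-receptor, had 380 CPM in Clu-high and 187 CPM in Clu-low cells, below the 1321 CPM of the myeloid cells. The part of such RNA in these ratios was not tested. With the cell richest in the gene left out of each group, a setting chosen after seeing the data, the log2 ratio was 2.90 for Ccl5 (2.25 with it), 3.76 for Ccl20 (1.02), 2.00 for Gpx3 (1.86) and 0.996 for Cd14 (1.02). For Ccl20 this left few Clu-low UMIs. Of 17 alternatives, Ccl5 stayed past 2-fold in 16, Cd14 in 11, Gpx3 in 10 and Ccl20 in 7. Gpx3 had a log2 ratio of 0.75 without Scrublet doublets and 0.87 with cells weighted equally. It had 0.08 with Tyrobp, Fcer1g and Ctss under 5 per 10000.

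Just under the 2-fold line stood Lcn2, the secreted iron-siderophore carrier also known as NGAL, with 1837 CPM (1785 to 1891) in Clu-high and 923 CPM (891 to 955) in Clu-low cells, a ratio of 1.99 (1.90 to 2.08). Its median per cell was 14.3 per 10000 UMIs in Clu-high and 5.02 in Clu-low cells. Spp1, the transcript of osteopontin, made up 93837 CPM in Clu-high and 63629 CPM in Clu-low cells (ratio 1.47), and every gated cell of both groups held it. Igfbp7, a secreted insulin-like growth factor-binding protein, had 1058 CPM in Clu-high and 650 CPM in Clu-low cells (1.63). By their level in Clu-high cells these 3 were the most abundant of 13 measured injury markers, of which 0 were higher and 0 lower by 2-fold, and 5 of 13 had ratios above 1. Lgals3, a galectin, had 634 CPM in Clu-high and 882 CPM in Clu-low cells (0.72).

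Klk1 was the most abundant of the lower genes in Clu-low cells. It encodes tissue kallikrein, a protease that releases kinins, and has close relatives in the mouse kallikrein cluster, between which the authors' counting may split or drop reads. Klk1 stood at 762 CPM (728 to 796) in Clu-high cells and 3211 CPM (3152 to 3271) in Clu-low cells, a ratio of 0.24 (0.23 to 0.25). The median per cell was 1.41 per 10000 UMIs in Clu-high cells, with a highest value of 81.9, and 13.8 in Clu-low cells, with a highest value of 325. After thinning, 47.4% of Clu-high, 77.2% of Clu-low and 20.3% of myeloid cells held a Klk1 UMI. The ranges overlapped, and the upper quartile of Clu-high cells, 5.40 per 10000, lay under the Clu-low median.

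Klf4, a zinc-finger transcription factor, had 55.9 CPM (47.1 to 65.9) in Clu-high and 205 CPM (190 to 220) in Clu-low cells, a ratio of 0.27 (0.23 to 0.33). It was found after thinning in 7.14% of Clu-high, 32.1% of Clu-low and 13.9% of myeloid cells, and myeloid cells are known to express it. Sfrp1, a secreted protein that binds Wnt ligands, had 154 CPM in Clu-high and 455 CPM in Clu-low cells (0.34, 0.30 to 0.38). Atp2b4, a plasma membrane calcium pump, had 15.0 CPM in Clu-high and 59.7 CPM in Clu-low cells (0.25, 0.17 to 0.36), and Slc29a1, a nucleoside transporter, had 16.5 CPM in Clu-high and 61.2 CPM in Clu-low cells (0.27, 0.19 to 0.38). Fosb, a subunit of the transcription factor AP-1, had 45.3 CPM in Clu-high and 121 CPM in Clu-low cells (0.38, 0.30 to 0.46). The 6 further lower genes, Csrp1, Ly6e, Pla2g4a, Ramp3, Tmem158 and Tspan1, had ratios of 0.34 to 0.48.

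The windows of 250 bases before the annotated starts of Pigr, Slc34a2, Klk1 and Klf4 are shown as examples, since these 4 genes were among those that kept at least a 2-fold ratio under all 17 alternatives that gave a new ratio. They are RefSeq sequences of GRCm38.p6, read 5′ to 3′ on the gene's strand, with any CACGTG in capitals. The genes are protein-coding and span chr1:130826684-130852249 (Pigr, plus strand), chr5:53038081-53071664 (Slc34a2, plus), chr7:44225360-44229618 (Klk1, plus) and chr4:55527143-55532466 (Klf4, minus) in GENCODE vM21, so the Slc34a2 window lies inside the annotated gene, before the start of its shorter transcripts.
Pigr, chr1:130826434-130826683, plus strand: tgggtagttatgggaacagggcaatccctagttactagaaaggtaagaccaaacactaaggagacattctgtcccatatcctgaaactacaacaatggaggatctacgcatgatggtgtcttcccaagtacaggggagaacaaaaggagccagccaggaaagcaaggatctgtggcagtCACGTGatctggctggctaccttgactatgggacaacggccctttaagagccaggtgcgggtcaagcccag
Slc34a2, chr5:53049103-53049352, plus strand: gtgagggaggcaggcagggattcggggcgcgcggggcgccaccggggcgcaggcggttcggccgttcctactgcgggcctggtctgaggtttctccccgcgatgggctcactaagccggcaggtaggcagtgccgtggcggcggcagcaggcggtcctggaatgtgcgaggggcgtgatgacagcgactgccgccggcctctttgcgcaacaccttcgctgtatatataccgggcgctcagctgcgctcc
Klk1, chr7:44225110-44225359, plus strand: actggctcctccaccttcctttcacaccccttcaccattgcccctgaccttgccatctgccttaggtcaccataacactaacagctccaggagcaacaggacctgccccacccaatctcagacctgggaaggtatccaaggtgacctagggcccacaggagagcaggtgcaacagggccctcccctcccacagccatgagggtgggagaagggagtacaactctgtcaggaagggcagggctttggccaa
Klf4, chr4:55532476-55532725, minus strand: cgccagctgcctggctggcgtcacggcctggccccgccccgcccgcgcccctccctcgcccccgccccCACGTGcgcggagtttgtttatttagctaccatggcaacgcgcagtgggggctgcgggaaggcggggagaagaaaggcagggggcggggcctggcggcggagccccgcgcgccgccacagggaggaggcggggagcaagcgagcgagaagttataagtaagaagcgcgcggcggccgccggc
The hexamer CACGTG is the core of the E-box bound by proteins such as USF1 and TFEB, and equals its reverse complement. It lay once in the Pigr and once in the Klf4 window, and not in those of Slc34a2 and Klk1. Of the higher genes, 10 of 13 had a window in the table, and 3 of them (Ctsl, Nupr1 and Pigr) held the hexamer. Of the lower genes 17 of 23 had one, and 1 (Klf4) held it, against 6.05% of 27025 windows in all. Motifs were searched on both strands, whether or not they overlapped one another. The AP-1 motif TGANTCA was in 0 of the 10 and 0 of the 17, against 6.87% of all windows. The heat shock element GAANNTTC was in 0 of the 10 and 2 of the 17, those of Hspa1a and S100a6, against 6.78% of all windows. The STAT motif TTCNNNGAA was in 1 of the 10, that of Nupr1, and 0 of the 17, against 7.18% of all windows, and the estrogen-related receptor motif TCAAGGTCA was in 0 of both, against 0.366%. A match is a run of letters and not a shown binding site.

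The lowest ratios were those of Pappa2, Bmp3 and Nos1, and Pappa2 and Nos1 are on the macula densa list. Pappa2, a protease that frees insulin-like growth factors, had 4.33 CPM (2.16 to 7.75) in Clu-high and 68.8 CPM (60.4 to 78.1) in Clu-low cells, a ratio of 0.06. Nos1, the neuronal nitric oxide synthase, had 10.6 CPM (7.01 to 15.5) in Clu-high and 79.9 CPM (70.9 to 89.8) in Clu-low cells, a ratio of 0.13. A single Clu-high cell held all Pappa2 UMIs of that group, and a single cell held most of its Nos1 UMIs. With the cell richest in the gene left out of each group, the log2 ratio of Nos1 was -5.975 (-2.91 with it). Pappa2 then had no UMI in Clu-high cells and gave no ratio. Bmp3, a bone morphogenetic protein, had 5.51 CPM in Clu-high and 54.6 CPM in Clu-low cells (0.10). Of the macula densa list, Robo2 with 3.55 CPM in Clu-high and 27.3 CPM in Clu-low cells and Avpr1a with 1.58 CPM in Clu-high and 11.1 CPM in Clu-low cells were under the minimum of 50 CPM, and Ptgs2, a prostaglandin synthase, had 125 CPM in Clu-high and 122 CPM in Clu-low cells (1.02), beside 1368 CPM in myeloid cells.

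At least 1 UMI of Nos1 or Pappa2 was held by 4 of 154 Clu-high cells (2.60%, 0.712 to 6.52%), 4 of 118 cells between the limits and 59 of 246 Clu-low cells (24.0%, 18.8 to 29.8%), beside 0.253% of myeloid cells. They numbered 47 of the 121 cells under 10 Clu per 10000, 12 of 125 at 10 to 25, 4 of 118 at 25 to 60, 2 of 105 at 60 to 120 and 2 of 49 at 120 and more. In Clu-low cells, those with such a UMI had 7354 CPM of S100g, the calcium-binding protein calbindin-D9k, and 637 CPM of Umod, and those without had 632 CPM of S100g and 7707 CPM of Umod.

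Without the cells that held a Nos1 or Pappa2 UMI, a comparison chosen after both genes were seen among the lower ones, 8 of 2844 measured genes (0.281%) were higher and 6 (0.211%) were lower. Among the lower genes that stayed past the line and above the minimum level were Klk1 (705 CPM in Clu-high, 2937 CPM in Clu-low cells, ratio 0.24), Fosb (0.36), Klf4 (0.37) and Sfrp1 (0.47). Hbegf, an EGF receptor ligand, joined them with 98.1 CPM in Clu-high and 219 CPM in Clu-low cells (0.45). S100g came to 0.93, Csrp1 to 0.91, Pla2g4a to 0.89 and Anxa1 to 0.85, and Ramp3 and Tmem158 turned to 1.39 and 1.40. Of the 13 higher genes 7 stayed: Ccl5, Gpx3, Prr15, Nupr1, Pigr (2.41), Slc34a2 (2.20) and Ctsl (2.10). Apoe joined them with 155 CPM in Clu-high and 77.4 CPM in Clu-low cells (2.00).

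**Figure D2:**
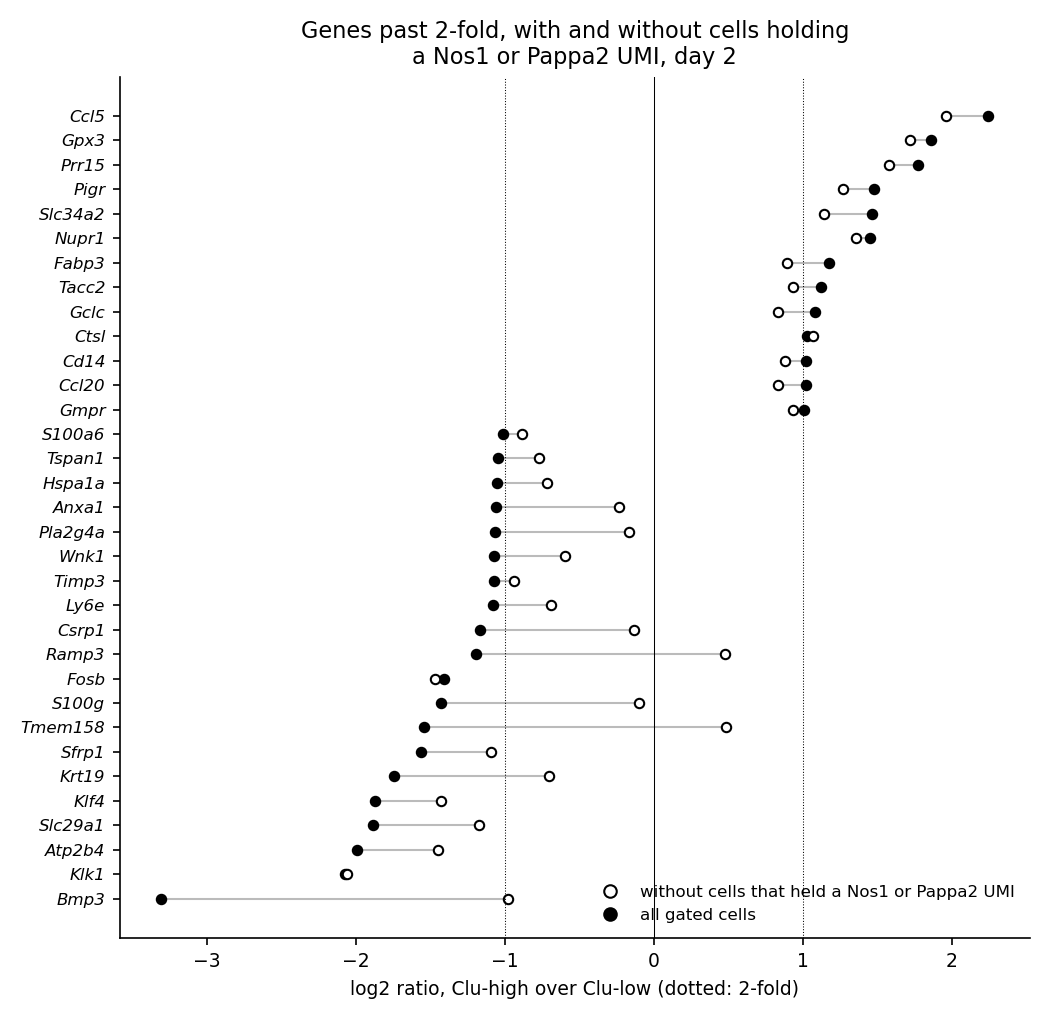
Log2 ratio of Clu-high over Clu-low cells (horizontal axis) of 33 of the 36 genes past 2-fold, 1 row each; open circles leave out cells that held a Nos1 or Pappa2 UMI and filled circles hold all gated cells. Nos1 and Pappa2 themselves are among those not drawn, Klk1 hardly moves, and S100g, Csrp1, Ramp3, Tmem158, Pla2g4a and Anxa1 move to within 1.5-fold of no difference.

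The salt transport genes given here lay within 2-fold, and not all members of these lists are reported here. Of the apical list, the potassium channel Kcnj1 had 115 CPM in Clu-high and 150 CPM in Clu-low cells (0.77), and the sodium-proton exchanger Slc9a3 had 8.67 CPM in Clu-high and 4.55 CPM in Clu-low cells. Of the genes of basolateral exit, the sodium pump subunit Atp1b1, with 2544 CPM in Clu-high and 2565 CPM in Clu-low cells (0.99), and the potassium channel Kcnj16, with 412 CPM in Clu-high and 420 CPM in Clu-low cells (0.98), lay near 1. The pump regulator Fxyd2 had 6698 CPM in Clu-high and 8714 CPM in Clu-low cells (0.77). Kcnj10, with 27.6 CPM in Clu-high and 22.5 CPM in Clu-low cells, and the chloride channel subunit Bsnd, with 15.8 CPM in Clu-high and 25.3 CPM in Clu-low cells, were below the minimum.

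Claudins form the paracellular cation route. Of 6 measured members of that list 0 were higher and 0 lower. Cldn10, the sodium-selective claudin, had 329 CPM in Clu-high and 400 CPM in Clu-low cells (0.82). Cldn16 and Cldn19, which pair for calcium and magnesium, had ratios near 1. Cldn16 had 133 CPM in Clu-high and 122 CPM in Clu-low cells (1.09), and Cldn19 had 217 CPM in Clu-high and 182 CPM in Clu-low cells (1.19). Cldn3 had 117 CPM in Clu-high and 228 CPM in Clu-low cells (0.52), Cldn8 had 61.8 CPM in Clu-high and 65.1 CPM in Clu-low cells (0.95) and the scaffold Tjp1 48.8 CPM in Clu-high and 53.5 CPM in Clu-low cells (0.91). Cldn14, which blocks the Cldn16 and Cldn19 route, had 39.8 CPM (32.4 to 48.3) in Clu-high and 11.7 CPM (8.37 to 15.8) in Clu-low cells. Its ratio of 3.41 is outside the count as both levels are under 50 CPM, and single cells held 24.8% of its Clu-high and 43.9% of its Clu-low UMIs. Cldn4 had 23.6 CPM in Clu-high and 40.7 CPM in Clu-low cells.

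The mosaic of Cldn10 and Cldn16 cells was similar in both groups, with overlapping exact intervals for all 4 kinds of cells. A Cldn10 UMI without Cldn16 was held by 53 of 154 Clu-high and 89 of 246 Clu-low cells, a Cldn16 UMI without Cldn10 by 46 Clu-high and 57 Clu-low cells, both by 45 Clu-high and 77 Clu-low cells and neither by 10 Clu-high and 23 Clu-low cells. Klk1 had a ratio of 0.15 in Cldn10 cells (367 CPM in Clu-high and 2476 CPM in Clu-low cells) and of 0.25 in Cldn16 cells (1105 CPM in Clu-high and 4455 CPM in Clu-low cells). The ratio of Slc34a2 was 4.04 in Cldn10 and 2.99 in Cldn16 cells, that of Pigr 2.80 in Cldn10 and 2.11 in Cldn16 cells, and that of Sfrp1 0.19 in Cldn10 and 0.18 in Cldn16 cells. These genes kept their side in both kinds of cells. Both kinds are parts of the cells that called these genes, so the direction was largely set in advance. S100g kept its side to a lesser extent, with 0.10 in Cldn10 and 0.85 in Cldn16 cells. Gpx3 did not keep it, with a log2 ratio of 1.10 in Cldn10 and -1.30 in Cldn16 cells.

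Of the secreted products, 0 of 4 were higher and 0 lower. Umod had 7499 CPM (7393 to 7606) in Clu-high and 6119 CPM (6037 to 6201) in Clu-low cells (1.23), and 1.01 without the cells with a Nos1 or Pappa2 UMI. Egf, the epidermal growth factor precursor, had 98.5 CPM in Clu-high and 147 CPM in Clu-low cells (0.67), Sostdc1, a secreted antagonist of bone morphogenetic proteins, had 323 CPM in Clu-high and 406 CPM in Clu-low cells (0.80), and Kng2, a kininogen, had 522 CPM in Clu-high and 466 CPM in Clu-low cells (1.12). Thus 2 of the 4 products had ratios above 1 and 2 below 1, all within 2-fold.

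Among 5 measured regulators 1 was lower. Wnk1, a kinase upstream of the cotransporter, had 109 CPM in Clu-high and 230 CPM in Clu-low cells (0.48), beside 290 CPM in myeloid cells, and 0.66 without the cells with a Nos1 or Pappa2 UMI. Stk39, the kinase that Wnk1 activates, had 96.5 CPM in Clu-high and 99.8 CPM in Clu-low cells (0.97), the prostaglandin receptor Ptger3 81.9 CPM in Clu-high and 83.9 CPM in Clu-low cells (0.98), the phosphatase inhibitor Ppp1r1a 322 CPM in Clu-high and 454 CPM in Clu-low cells (0.71) and the parathyroid hormone receptor Pth1r 749 CPM in Clu-high and 594 CPM in Clu-low cells (1.26). The other 7, Avpr2, Casr, Enox1, Nedd4l, Oxsr1, Ppp1r1b and Tmem207, stood at 5.91 to 44.9 CPM in Clu-high and 3.98 to 47.2 CPM in Clu-low cells. Of 11 measured nephron transcription factors 0 passed the line. Tfcp2l1 had 399 CPM in Clu-high and 578 CPM in Clu-low cells (0.69) and Tfap2b 345 CPM in Clu-high and 369 CPM in Clu-low cells (0.94).

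Genes of stress and repair showed few members past 2-fold, read against 0.444% higher and 0.786% lower among all genes. Of 12 measured annexins and S100 proteins 3 were lower and 0 higher, with a median log2 ratio of -0.34 beside -0.04 for all genes: S100g (795 CPM in Clu-high and 2142 CPM in Clu-low cells), S100a6 (642 CPM in Clu-high and 1295 CPM in Clu-low cells) and Anxa1 (70.1 CPM in Clu-high and 147 CPM in Clu-low cells). Without the cells that held a Nos1 or Pappa2 UMI 0 of this list were lower, with S100a6 at a log2 ratio of -0.89. In myeloid cells S100a6 stood at 3647 CPM and Anxa1 at 269 CPM. Of 20 measured keratins and cytoskeletal genes 1 was lower, Krt19 with 19.7 CPM in Clu-high and 66.0 CPM in Clu-low cells (0.30), and without those cells 0 were lower, with Krt19 at a log2 ratio of -0.70. Of 18 measured immediate early genes 2 were lower with and without those cells, Klf4 and Fosb, and the median log2 ratio was -0.33. Jun had 635 CPM in Clu-high and 841 CPM in Clu-low cells (0.76) and Fos 548 CPM in Clu-high and 783 CPM in Clu-low cells (0.70).

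Of 11 measured heat shock genes 1 was lower, Hspa1a with 44.9 CPM in Clu-high and 93.02 CPM in Clu-low cells (0.48), and without the cells that held a Nos1 or Pappa2 UMI 0 were lower, with Hspa1a at a log2 ratio of -0.72. Hspb1, a small heat shock protein, had 310 CPM in Clu-high and 571 CPM in Clu-low cells (0.54). Of 15 measured antioxidant and metal-binding genes 2 were higher, Gclc and Gpx3, and 1 without those cells, Gpx3, and the median log2 ratio was 0.17. Fth1, ferritin heavy chain, had 6503 CPM in Clu-high and 5005 CPM in Clu-low cells (1.30), and the metallothionein Mt1 4767 CPM in Clu-high and 3770 CPM in Clu-low cells (1.26). Of 13 measured lysosomal genes 1 was higher, Ctsl, beside Ctsd, cathepsin D, with 1329 CPM in Clu-high and 1118 CPM in Clu-low cells (1.19). Of 11 measured matrix and adhesion genes 1 was lower, Timp3, an inhibitor of metalloproteases, with 173 CPM in Clu-high and 364 CPM in Clu-low cells (0.47), and without those cells 0 were lower, with Timp3 at a log2 ratio of -0.94.

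Energy metabolism lay close to 1. None of 32 measured nuclear oxidative phosphorylation genes, 13 mitochondrially encoded genes, 22 genes of fatty acid oxidation and the citric acid cycle and 14 glycolysis genes passed 2-fold, and the medians of their log2 ratios were -0.04, 0.10, 0.02 and -0.02. None of 14 genes of the unfolded protein response, 7 p53 targets, 6 cell cycle genes, 9 interferon and antigen presentation genes, 6 genes of the EGF, TGF-beta and YAP pathways and 2 complement genes passed it either. Of 7 measured NF-kappaB targets and chemokines 1 was higher, Ccl20. None of the 6 receptors that are known to bind clusterin was measured.

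**Figure D3:**
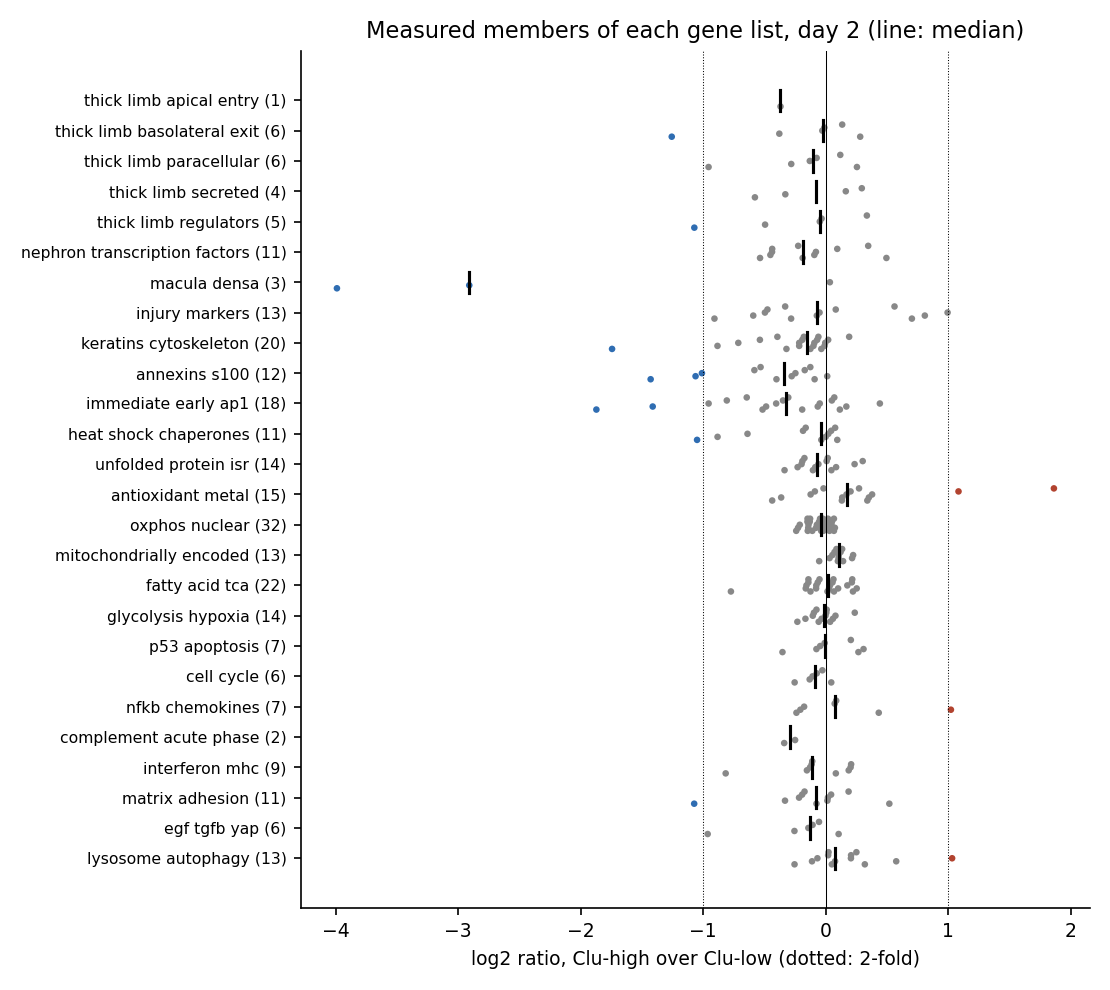
Log2 ratio of Clu-high over Clu-low cells (horizontal axis) of the measured members of each gene list, 1 point per gene, with the number measured in brackets and a black line at the median; red and blue points are past 2-fold. Most lists lie around 0, and the immediate early and annexin and S100 lists have medians of -0.33 and -0.34.

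Across 5 intervals of Clu, from under 10 to 120 and more per 10000 UMIs, several genes ran in steps. Klk1 stood at 3548, 2886, 1856, 874 and 523 CPM in rising order of Clu, lower at each step. Pigr stood at 107, 137, 226, 300.1 and 423 CPM, higher at each step, and Ctsl at 623, 746, 840.1, 1308 and 1598 CPM. Of the 13 higher genes 5 were higher at each step (Pigr, Ctsl, Cd14, Gclc and Fabp3), and of the 23 lower genes 8 were lower at each step. Slc34a2 levelled off, with 34.2, 73.7, 84.8, 153 and 143 CPM, as did Lcn2, with 724, 1115, 1517, 1893 and 1720 CPM. Klf4 had 280, 132, 90.6, 58.5 and 50.4 CPM. Umod was lowest in the interval that held most cells with a Nos1 or Pappa2 UMI, with 4225 CPM under 10 and 7329 to 8250 CPM in the other intervals. The intervals share the library and the Clu values that chose the groups, so the direction of the called genes across them was largely set in advance. The share of all measured genes that ran in steps was not counted, so the counts of such genes are descriptions.

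**Figure D4:**
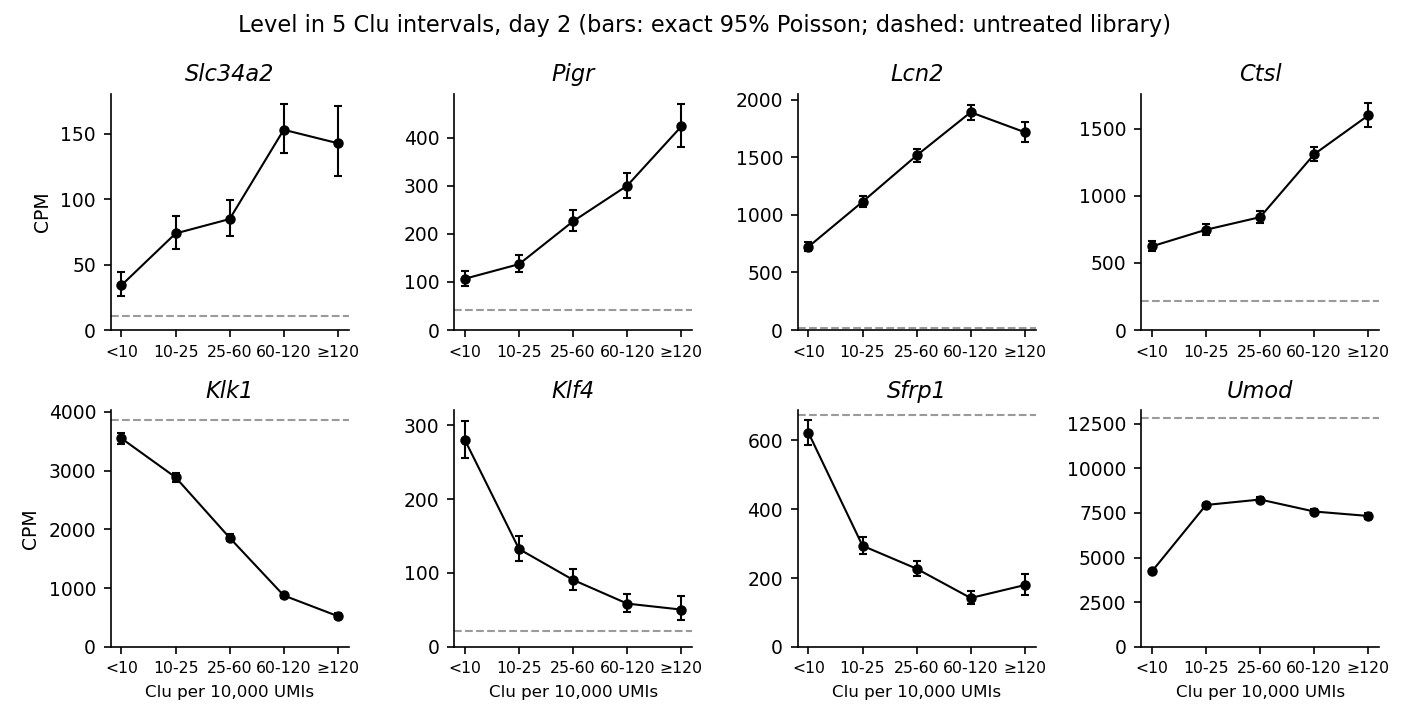
CPM (vertical axes, from 0) of 8 genes in 5 intervals of Clu per 10000 UMIs (horizontal axes) in the day 2 gated cells; bars are exact 95% Poisson intervals and dashed lines the level in the same gate of the untreated library. Klk1 and Klf4 are lower at each step and Pigr and Ctsl higher, and Slc34a2, Lcn2 and Umod level off.

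The same gate in the untreated library held 900 cells, of which 0 reached 60 Clu per 10000, 2 lay between and 898 were under 25. Clu stood at 11018 CPM in Clu-high and 1110 CPM in Clu-low cells of day 2, and at 57.1 CPM in the untreated cells. The untreated cells had a median of 4229 UMIs, and 8 proximal tubule markers summed to 85.9 CPM in Clu-high, 46.7 CPM in Clu-low and 14209 CPM in untreated cells, and the part of such RNA in the untreated levels was not tested. Klk1 stood at 762 CPM in Clu-high, 3211 CPM in Clu-low and 3857 CPM in untreated cells, and Sfrp1 at 154 CPM in Clu-high, 455 CPM in Clu-low and 675 CPM in untreated cells. For both genes the untreated level lay above both day 2 groups. As they were chosen as lower in Clu-high cells, the Clu-low level then had to be the nearer one, and no trait is read from this. Of the 23 lower genes, 15 had a Clu-low level at least 2-fold above the untreated one. These genes were chosen as higher in Clu-low cells, and the share over all measured genes was not counted. The 15 are therefore not read as a trait of these genes. Pigr stood at 340 CPM in Clu-high, 122 CPM in Clu-low and 42.4 CPM in untreated cells, Slc34a2 at 150 CPM in Clu-high, 54.3 CPM in Clu-low and 10.9 CPM in untreated cells, and Lcn2 at 1837 CPM in Clu-high, 923 CPM in Clu-low and 15.6 CPM in untreated cells, so Clu-low cells also lay above untreated cells. Klf4, at 55.9 CPM in Clu-high, 205 CPM in Clu-low and 21.4 CPM in untreated cells, and S100g, at 795 CPM in Clu-high, 2142 CPM in Clu-low and 303 CPM in untreated cells, were higher in both day 2 groups than in untreated cells. Egf stood at 98.5 CPM in Clu-high, 147 CPM in Clu-low and 3044 CPM in untreated cells.

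The later libraries held too few Clu-high cells for the same limits, with 6 of 86 gated cells at day 7 and 4 of 404 at day 30, where a minimum of 30 cells a side applied. A single limit of 25 per 10000, chosen after these numbers were seen, gave 41 cells at or above it and 363 below it at day 30. At day 2 that limit called 8 of 2893 measured genes (0.277%) higher and 17 (0.588%) lower. At day 30 it called 30 of 3569 (0.841%) higher and 54 (1.51%) lower.

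Of the 13 genes higher at day 2 with limits of 60 and 25, 10 were measured at day 30, and 5 of those were among the 30 higher there. Slc34a2 had 143 CPM in cells with at least 25 Clu and 30.2 CPM in the others (4.73, 3.49 to 6.37), Pigr 680.1 CPM at 25 Clu or more and 274 CPM below (2.48, 2.20 to 2.80), Ctsl 983 CPM at 25 Clu or more and 463 CPM below (2.13), Prr15 121 CPM at 25 Clu or more and 44.3 CPM below (2.73) and Cd14 299 CPM at 25 Clu or more and 89.0 CPM below (3.36). Lcn2 had 1424 CPM at 25 Clu or more and 455 CPM below (3.13). Gclc did not keep its side at day 30, with 63.5 CPM at 25 Clu or more and 73.2 CPM below (0.87). Of the 23 lower genes 18 were measured at day 30 and 3 were among the 54 lower: Klk1 with 351 CPM at 25 Clu or more and 1066 CPM below (0.33, 0.28 to 0.38), Sfrp1 with 83.3 CPM at 25 Clu or more and 211 CPM below (0.40) and Tmem158 with 31.7 CPM at 25 Clu or more and 69.4 CPM below (0.46). Klf4 lay at 0.92 and S100a6 at 1.36 at day 30.

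At day 30 Egf had 67.4 CPM in cells with at least 25 Clu and 559 CPM in the others (0.12, a log2 ratio of -3.05). With the same single limit of 25 the log2 ratio of Egf at day 2 was -0.47. The Egf ratio of 0.67 at day 2 compared Clu-high with Clu-low cells and left out the cells between. Sostdc1 had 216 CPM at 25 Clu or more and 576 CPM below at day 30 (0.38). Genes of stromal cells, named after their values were seen, lay on both sides at day 30. Dcn had 512 CPM at 25 Clu or more and 19.9 CPM below, and Col3a1 had 174 CPM at 25 Clu or more and 74.2 CPM below. Cxcl12 (0.077, 95% counting interval 0.0092 to 0.28), Tagln (0.21), Vim (0.43), Acta2 (0.44), Mgp (0.44) and Sparc (0.46) were lower at 25 Clu or more, and the part of such RNA in the day 30 ratios was not tested. Whether the ratios differ between days was not tested, since each day is 1 library.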

How the data were processed

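The data are droplet single-cell RNA counts (10x Genomics 3′ kit v3.1, per the labels' protocols). Per the submitters' processing notes, the authors used Cell Ranger 7.0.1 with the mouse build mm10, while the matrix headers carry software version 3.0.1; the deposited values are whole UMI counts per gene and barcode with no normalization. The annotation release and barcode filter behind them are not stated.

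From there, UMIs were summed over the cells of each group and scaled to CPM, with exact Poisson, Poisson-ratio and Clopper-Pearson 95% intervals (Python 3.11.15, numpy 2.4.6, scipy 1.17.1, pandas 2.3.3). PCR duplicates are removed by UMIs, but cells of 1 library are not replicates, so no model was fitted. Clu, Slc12a1, Slc12a3, Aqp2, Tyrobp, Fcer1g and Ctss were left out of calls. Doublets were called with Scrublet in scanpy 1.11.5 (702 of 8988 day 2 cells) and removed in an alternative. Ratios, their intervals and calling were tested on simulated group counts. Summing over cells and thinning were not part of that test.

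The groups, the 27 gene lists and the marker lists were chosen with earlier results of these data known. Named are the members of the thick limb lists, some of which are not reported here, the 15 higher and 15 lower genes whose interval bounds lay farthest from 1, and in each other list up to 5 measured members with the highest CPM and up to 3 past 2-fold. Csrp1, Pla2g4a, Ramp3, Tspan1, Apoe and the stromal genes were chosen after their values were seen. The E-box was added to the motifs after the promoter windows had been read. Gene positions come from GENCODE vM21, whose build GRCm38 is that of the files. Alternatives changed the Clu, Slc12a1 and immune limits, doublets, weighting, depth, scaling, free RNA, level, fold and cell kind.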

Additional observations from a re-analysis of the deposited data

How the results depend on the processing

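The counts of genes past 2-fold moved with the settings, and no setting has a spread between animals to be read against. In place of 13 higher and 23 lower genes there were 54 and 74 with Clu limits of 120 and 10, 33 and 69 with cells thinned to 3000 UMIs, 31 and 85 in cells of 6000 to 15000 UMIs, 34 and 51 from 20 CPM, 41 and 78 at 1.5-fold, 20 and 51 in Cldn10 cells and 33 and 85 in Cldn16 cells. A single Clu limit of 40 left 4 higher genes, and a single limit of 25, chosen after seeing the data, left 8. The lower genes numbered 40 with Slc12a1 at 15 or more, 12 from 100 CPM and 38 with mitochondrial UMIs at most 10%. Leaving out cells with a Nos1 or Pappa2 UMI, also chosen after seeing the data, left 8 higher and 6 lower genes. Settings with fewer cells or UMIs have wider counting error. Of the 36 genes past 2-fold, 32 kept their side in all settings that gave a ratio and 8 stayed past 2-fold in all of them: Pigr, Slc34a2, Klk1, Klf4, Sfrp1, Atp2b4, Nos1 and Pappa2. Of 17 such settings, only 16 gave a ratio for Nos1 and 9 for Pappa2. Leaving out cells with a Nos1 or Pappa2 UMI removes both genes by definition. Ccl5 turned to a log2 ratio of -1.10 with Slc12a1 at 15 or more, and Gpx3 to -1.37 in cells of 6000 to 15000 UMIs and -1.30 in Cldn16 cells; single cells hold much of both. Ramp3 turned to 0.48 and Tmem158 to 0.49 without the cells with a Nos1 or Pappa2 UMI. No paired analysis was possible because each group is 1 library.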
